A study of Sus scrofa with 19 samples.

Results

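The renin-angiotensin, endothelin and apelin genes are 9 genes for ligands, an enzyme and receptors that set vascular tone and act on the heart: AGT, ACE, AGTR1, NR3C2, EDN1, EDNRA, EDNRB, APLN and APLNR. They were looked up by gene symbol in the authors' table of expressed genes and joined by Ensembl ID to the counts of 25879 genes in 19 libraries. Of the 9 genes, 7 were found in that table, and all 7 passed the filter on low counts that kept 13552 genes for testing. APLN and APLNR were not in the table. The Ensembl ID that the reference gene table gives to APLNR was listed with 0 counts in all 19 libraries, where 3 counts would correspond to between 0.169 and 0.267 CPM (counts per 1000000 counts of the scaled library), and the ID it gives to APLN had no row in the count files, so no value is given for APLN. RefSeq places APLNR on a scaffold without a known chromosome, and whether its 0 counts mean absent expression was not tested.

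The study sequenced poly(A) RNA of samples described as left ventricular myocardium of 19 female large white pigs, with 1 library per pig, to compare cardiotoxic injury with remodelling after infarction and with pressure overload. DOX pigs (n = 5) received doxorubicin and MYO pigs (n = 5) received Myocet, its liposomal form, each at 60 mg/m2 in 3 cycles, and both groups were followed for 3 months, earlier than planned because the animals were unwell. RemoLV pigs (n = 3) had a 90 min balloon occlusion of a coronary artery followed by reperfusion and were sampled in the posterior wall after 6 months. Hyper pigs (n = 3) had a stenosis of the aortic isthmus made with a 9 mm stent, and Control pigs (n = 3) are described as sham-operated in the sample records and as untreated in the study's methods. Both of these groups were followed for 6 months and sampled in the anterior wall, as were DOX and MYO. No transgene was involved, and the DOX and MYO data were taken over from an earlier publication, so drug, follow-up time and study cannot be told apart. The expression of a Y-linked gene, given below, cannot be told apart from them either.

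In the renin-angiotensin system, angiotensinogen is the precursor from which angiotensin-converting enzyme, at the last step, makes angiotensin II, which constricts vessels and promotes growth and fibrosis through its type 1 receptor and stimulates release of aldosterone, the ligand of the mineralocorticoid receptor. Endothelin-1 is a constrictor peptide of endothelial cells that acts through the A receptor on smooth muscle and cardiomyocytes, while the B receptor on endothelium releases nitric oxide and clears the peptide. Apelin is a peptide that dilates vessels and strengthens contraction through its own receptor. In the failing heart these systems are best known as the targets of converting enzyme inhibitors, angiotensin receptor blockers and mineralocorticoid receptor antagonists.

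The labels and the data disagreed in 3 respects, which bear on every comparison. The sample names of the authors' table did not match those of the count files. By rank correlation each of its 19 sample columns was identical in order to a single count file (Spearman rho 1.0, next best file at most 0.9919), and in 8 of these 19 pairs the group names differed. The 3 libraries labelled RemoLV are Control in the table, the 3 labelled Control are RemoLV in the table, and DOX replicate 5 and MYO replicate 1 are exchanged. Groups follow the count files (file labels) below, and the calls of the members are also given with the names of the table (table names). The comparison of DOX and MYO together with Hyper holds the same libraries on each side under either naming. Secondly, the libraries labelled RemoLV lacked a ventricular profile. MYL2, the ventricular regulatory light chain, was at 18.6 to 115 CPM in them and at 8975 to 18077 CPM in the other 16, whereas MYL4, the atrial essential light chain, was at 6029 to 8130 CPM against at most 21.9 CPM. MYL7, the atrial regulatory light chain, was not confined to them, with 3281 to 4770 CPM in these 3 libraries, 736 to 2379 CPM in the 10 drug libraries, 172, 287 and 1229 CPM in Hyper and 59.1 to 111 CPM in Control. Thirdly, DDX3Y, a gene of the Y chromosome, was at 96.1 to 177 CPM in all 10 DOX and MYO libraries and at 0 to 0.137 CPM in the other 9, although all pigs are described as female. This difference cannot be told apart from drug in any comparison of DOX or MYO with Control or Hyper. Library totals were 9527710 to 20370209 counts, with a median of 14527230.

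AGTR1 and EDNRA are shown by their promoter regions, because they were the 2 members called lower in DOX and MYO together than in Hyper under both namings. EDNRB is set beside them as the other endothelin receptor. The windows hold 250 bases before and 30 bases from the RefSeq gene start in Sscrofa11.1, the build to which the authors aligned, and are written 5′ to 3′ on the strand of the gene. Capitals mark matches on either strand to any of 4 short motifs, none of which contains another. The motif of the basal promoter was TATAAA, as bound by the general transcription machinery. That of AP-1, a factor induced by growth signals, was TGANTCA. The motif searched for GATA factors, which act in heart and vessels, was written TTATCT. The core of the hypoxia response element was searched by the letters ACGTG.
AGTR1 (chr13:88934623-88934902, plus strand): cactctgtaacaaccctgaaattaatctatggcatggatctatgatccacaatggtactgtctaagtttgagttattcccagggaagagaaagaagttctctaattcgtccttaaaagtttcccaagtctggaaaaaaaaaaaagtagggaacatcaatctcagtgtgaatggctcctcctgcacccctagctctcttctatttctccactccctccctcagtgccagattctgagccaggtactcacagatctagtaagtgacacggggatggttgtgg
EDNRA (chr8:81279024-81279303, minus strand): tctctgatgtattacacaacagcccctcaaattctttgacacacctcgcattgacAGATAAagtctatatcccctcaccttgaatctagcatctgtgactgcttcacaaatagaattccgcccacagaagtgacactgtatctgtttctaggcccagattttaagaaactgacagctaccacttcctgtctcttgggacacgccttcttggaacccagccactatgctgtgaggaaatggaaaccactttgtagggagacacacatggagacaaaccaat
EDNRB (chr11:50102850-50103129, minus strand): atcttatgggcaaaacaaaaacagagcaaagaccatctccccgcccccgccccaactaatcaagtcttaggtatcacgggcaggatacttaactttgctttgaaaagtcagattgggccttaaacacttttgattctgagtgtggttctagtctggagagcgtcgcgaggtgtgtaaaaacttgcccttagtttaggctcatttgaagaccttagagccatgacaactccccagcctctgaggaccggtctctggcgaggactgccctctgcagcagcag
The AGTR1 and EDNRB windows held none of the 4 motifs, and the EDNRA window held 1 GATA match that starts at position -195 from the gene start. Over 20653 promoter windows of the same length, the GATA site was present in 9.36%, the basal promoter motif (TATA box) in 11.2%, the AP-1 site in 6.0% and the hypoxia core in 20.5%. GC content was 43.9% in the AGTR1 window, 45% for EDNRA and 49.6% for EDNRB, at the 17.5, 19.5 and 29.0 percentiles of all windows. Among the other members, the ACE window held a TATA match at position -58, the EDN1 window 1 at position -248, and the AGT and NR3C2 windows held the hypoxia core. The APLNR window held a GATA match at position -148, and the APLN window held none of the 4 motifs. A match is a description of the letters only.

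By RefSeq in Sscrofa11.1, AGTR1 lies on chromosome 13 (ENSSSCG00000011695, 88934873 to 88980317, plus strand), EDNRA on chromosome 8 (ENSSSCG00000009031, 81210750 to 81279053, minus strand) and NR3C2 on the same chromosome (ENSSSCG00000037766, 80303172 to 80669050, plus strand). EDNRB lies on chromosome 11 (ENSSSCG00000009477, 50073300 to 50102879, minus strand), EDN1 on chromosome 7 (ENSSSCG00000035598, 8752018 to 8758354, plus strand), AGT on chromosome 14 (ENSSSCG00000010184, 59643030 to 59656835, plus strand) and ACE on chromosome 12 (ENSSSCG00000017296, 15394487 to 15414609, minus strand). The IDs are Ensembl's, as in the count files, and reads were counted over the exons of each gene.

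Levels of different genes were compared per kilobase of RefSeq exon. EDNRA, the constrictor receptor of endothelin, had the highest mean over the 19 libraries with 43.5 CPM per kb, followed by AGT with 41.4 CPM per kb. Their ranges overlapped (26.0 to 84.6 and 16.0 to 98.2 CPM per kb), and the order differed between groups. By group mean AGT was above EDNRA in DOX (34.2 against 31.9), MYO (49.8 against 35.4) and Hyper (57.5 against 54.7). It was below EDNRA in RemoLV (41.7 against 47.6) and Control (23.2 against 60.8). ACE (9.85), AGTR1 (9.31) and EDNRB (8.72 CPM per kb) lay close together, with ranges over the libraries that overlapped (5.75 to 15.9, 4.72 to 17.9 and 4.09 to 12.3 CPM per kb). NR3C2 had 4.85 and EDN1 2.30 CPM per kb. EDN1, the ligand, was therefore the least abundant of the 7, with only 31 to 124 counts per library, whereas EDNRA had 1553 to 5592 counts. The coefficient of variation of the CPM over all libraries was highest for AGT (51.8%) and AGTR1 (42.4%) and lowest for NR3C2 (25.6%).

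**Figure D1:**
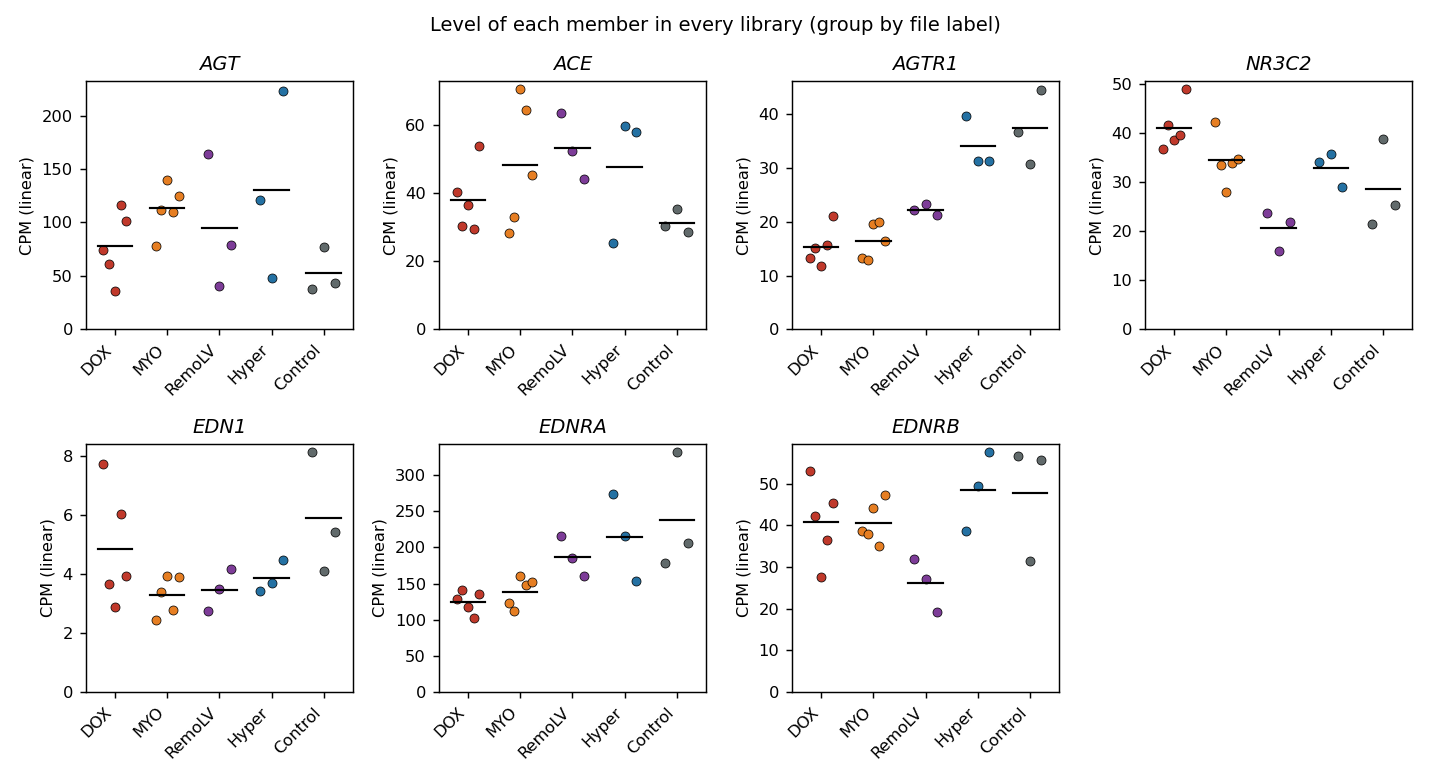
CPM (linear axis) of each gene in each of the 19 libraries, grouped by file label, with 1 point per library and the group mean as a horizontal bar. AGTR1 falls into 3 separate sets of libraries (11.7 to 21.0, 21.3 to 23.2 and 30.8 to 44.5 CPM), while AGT and ACE spread widely within groups.

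AGTR1, the type 1 angiotensin II receptor, was the member with the clearest differences. It was at 13.3, 15.1, 11.7, 15.6 and 21.0 CPM in the 5 DOX libraries and at 13.3, 12.8, 19.5, 20.0 and 16.4 CPM in the 5 MYO libraries. It was at 39.6, 31.2 and 31.2 CPM in Hyper, at 36.7, 30.8 and 44.5 CPM in Control and at 22.2, 23.2 and 21.3 CPM in the libraries labelled RemoLV. All 10 drug libraries were thus below all 9 others, and the libraries labelled RemoLV lay between the drug libraries and those of Hyper and Control without overlap. The gap to the drug libraries was small, from 21.0 CPM in DOX replicate 5 to 21.3 CPM in RemoLV replicate 3, and this difference was not tested. In the order of group means, from Control (37.3 ± 6.86 CPM, SD, n = 3) over Hyper (34.0 ± 4.81), RemoLV (22.2 ± 0.938) and MYO (16.4 ± 3.34, n = 5) to DOX (15.4 ± 3.52, n = 5), Control overlapped with Hyper and MYO with DOX.

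AGTR1 was lower than Control by a log2 fold change of -1.28 ± 0.18 (SE) in DOX (adjusted p = 3.51e-05, from the quasi-likelihood test of edgeR, adjusted by Benjamini-Hochberg over 13552 genes), to 0.411 of the Control level, and by -1.19 ± 0.18 in MYO (adjusted p = 7.23e-05). In the libraries labelled RemoLV it was lower by -0.75 ± 0.20 (adjusted p = 0.00569), and in Hyper the difference from Control was -0.13 ± 0.20 (adjusted p = 0.752). DOX and MYO together were lower than Hyper by -1.10 ± 0.15 on the log2 scale (adjusted p = 4.21e-05), which kept its call in all alternatives, leaving out each library included (adjusted p between 4.94e-09 and 0.00111). Under the table names this difference was -1.11 ± 0.13 (adjusted p = 6.91e-06). The comparisons with Control changed with the naming. By table names, AGTR1 was lower in DOX (-0.69, adjusted p = 0.00273), not called in MYO (-0.31, adjusted p = 0.143), and higher than Control in RemoLV (0.75, adjusted p = 0.00173) and in Hyper (0.61, adjusted p = 0.0096).

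EDNRA, the A receptor of endothelin on smooth muscle, was lower in the drug libraries as well. It was at 128, 141, 118, 102 and 136 CPM in DOX and at 123, 112, 160, 148 and 152 CPM in MYO. It was at 274, 216 and 154 CPM in Hyper, at 178, 332 and 206 CPM in Control and at 216, 185 and 160 CPM in the libraries labelled RemoLV. Hyper replicate 3 thus lay within the range of MYO, all Control libraries were above all drug libraries, and Control replicate 2 and Hyper replicate 1 stood highest. EDNRA was lower than Control by a log2 fold change of -0.93 ± 0.19 in DOX (adjusted p = 0.00108) and -0.78 ± 0.19 in MYO (adjusted p = 0.00387), and lower in DOX and MYO together than in Hyper by -0.70 ± 0.17 (adjusted p = 0.00456). Without Hyper replicate 1 the last difference was -0.49 and lost its call (adjusted p = 0.0829), and without Control replicate 2 the difference in MYO was -0.47. In RemoLV (-0.35 ± 0.22, adjusted p = 0.199) and Hyper (-0.15 ± 0.22, adjusted p = 0.74) EDNRA was not called. By table names it was lower in DOX (-0.61, adjusted p = 0.0226) and not called in MYO (-0.40, adjusted p = 0.127), and the difference of the drugs from Hyper was -0.71 (adjusted p = 0.00392).

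EDNRB, the B receptor on endothelium, had another pattern. It was at 31.9, 27.1 and 19.2 CPM in the libraries labelled RemoLV and at 35.1 to 47.3 CPM in MYO, which did not overlap. It was at 53.0, 42.2, 27.7, 36.5 and 45.3 CPM in DOX, at 38.6, 49.4 and 57.7 CPM in Hyper and at 56.6, 31.5 and 55.6 CPM in Control, so the low end of DOX and Control reached into the range of RemoLV. EDNRB was lower in the libraries labelled RemoLV than in Control by a log2 fold change of -0.87 ± 0.24 (adjusted p = 0.00691) and lower than in Hyper by -0.90 ± 0.24 (adjusted p = 0.00808). The other comparisons with Control were between -0.24 and 0.02 and were not called. With the table names, where these 3 libraries are Control, EDNRB was higher for DOX (0.60, adjusted p = 0.0471), MYO (0.68, adjusted p = 0.0266), RemoLV (0.87, adjusted p = 0.00661) and Hyper (0.90, adjusted p = 0.00769).

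The balance of the endothelin receptors was given as the log2 ratio of EDNRA to EDNRB within a library (0.5 CPM added to each). It was 1.62 ± 0.30 (SD, n = 5) in DOX, 1.76 ± 0.20 (n = 5) in MYO, 2.84 ± 0.17 (n = 3) in RemoLV, 2.11 ± 0.70 (n = 3) in Hyper and 2.30 ± 0.94 (n = 3) in Control. EDNRA had the higher CPM in every library although its exons are shorter (3924 against 4682 bp), and the 10 drug libraries (1.26 to 2.07) lay below the 3 labelled RemoLV (2.74 to 3.03), while Control spread from 1.64 to 3.38. In an exact 2-sided permutation test the differences from Control had unadjusted p between 0.25 and 0.70 (adjusted 0.533 to 0.80 over 8 ratio tests). The smallest unadjusted p is 0.0357 for 5 against 3 libraries and 0.1 for 3 against 3, so that after adjustment no outcome of this design could have reached 0.05. By table names DOX (-1.20) and MYO (-1.10) differed from Control without overlap, each at the smallest p of the exact permutation test (0.0357, adjusted p = 0.143).

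**Figure D2:**
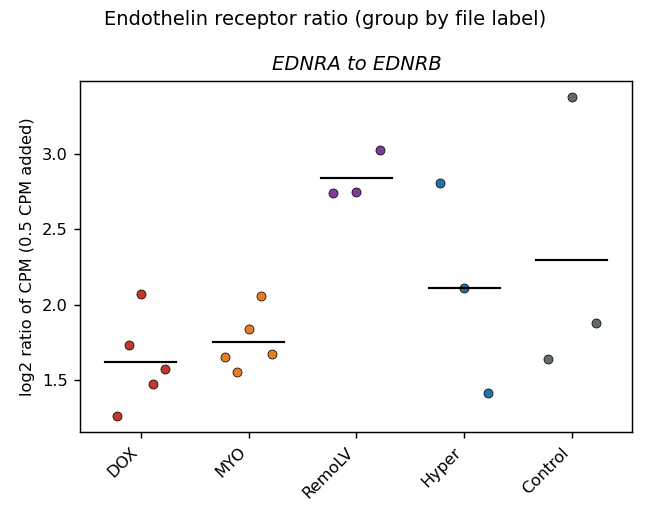
Log2 ratio of EDNRA to EDNRB (CPM, 0.5 CPM added) in each library by file label, with group means as lines. The ratio is between 1.26 and 2.07 in the drug libraries and between 2.74 and 3.03 in those labelled RemoLV, and it spreads from 1.64 to 3.38 in Control.

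EDN1, the ligand, was at 7.74, 3.65, 2.87, 6.05 and 3.95 CPM in DOX and at 2.46, 3.39, 3.95, 2.77 and 3.89 CPM in MYO. It was at 8.14, 4.10 and 5.43 CPM in Control, 3.44, 3.69 and 4.49 CPM in Hyper and 2.74, 3.50 and 4.19 CPM in RemoLV. The 3 Control libraries were all above the 5 MYO libraries, by as little as 4.10 against 3.95 CPM. EDN1 was lower in MYO than in Control by a log2 fold change of -0.83 ± 0.29 (adjusted p = 0.0301). This call was lost on leaving out MYO replicate 1 or 4 or Control replicate 1 or 3 (values between -1.04 and -0.53 over all libraries left out), and with the table names the difference was 0.05 (adjusted p = 0.923). Differences in DOX (-0.27), RemoLV (-0.76, adjusted p = 0.0703, called without DOX replicate 1 or Control replicate 2) and Hyper (-0.60) were not called, nor were those by table names (0.40, 0.76 and 0.16).

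**Figure D3:**
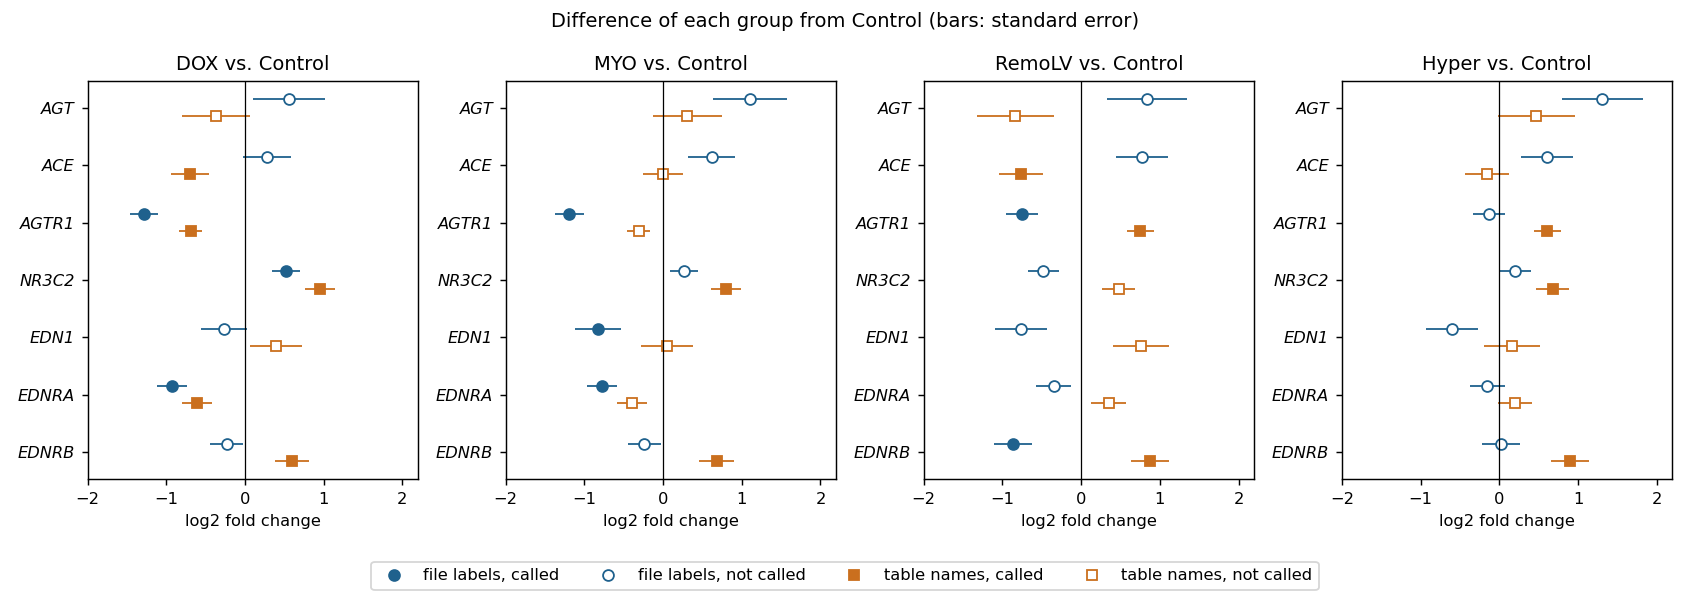
Log2 fold change of each gene against Control for the 4 groups, with standard errors, by file labels (circles) and by table names (squares); filled symbols have an adjusted p of at most 0.05. AGTR1 in RemoLV changes from -0.75 to 0.75 with the names, while in DOX it is negative under both.

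NR3C2, the mineralocorticoid receptor, was the only member with a higher call by file labels. It was at 36.8, 41.5, 38.5, 39.5 and 48.9 CPM in DOX and at 42.3, 33.4, 27.9, 33.8 and 34.6 CPM in MYO. It was at 21.4, 38.8 and 25.4 CPM in Control, at 34.0, 35.7 and 29.0 CPM in Hyper and at 23.7, 16.0 and 21.9 CPM in the libraries labelled RemoLV, which were all below those of DOX, MYO and Hyper. Control replicate 2 lay within the range of DOX. NR3C2 was higher in DOX than in Control by 0.52 ± 0.18 on the log2 scale (adjusted p = 0.0253). The call was lost with only the 2 groups in the fit (0.52, adjusted p = 0.0617) and without DOX replicate 5, Control replicate 1 or Control replicate 3, and the value reached 0.81 without Control replicate 2. In MYO the difference was 0.27 ± 0.18 (adjusted p = 0.234), which was 0.55 and called without Control replicate 2 (adjusted p = 0.0133) and 0.10 without Control replicate 1. NR3C2 was lower in the libraries labelled RemoLV than in Hyper by -0.68 ± 0.20 (adjusted p = 0.0119), a call that was lost without RemoLV replicate 2, and against Control it was at -0.48 ± 0.20 (adjusted p = 0.0548), where DESeq2 called it (-0.49, adjusted p = 0.0423). Named as in the table, NR3C2 was higher than Control in DOX (0.95, adjusted p = 0.00107), MYO (0.80, adjusted p = 0.00403) and Hyper (0.68, adjusted p = 0.0154).

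AGT, the precursor of the angiotensins, ranged from 36.3 to 116 CPM in DOX, 78.3 to 140 CPM in MYO, 40.6 to 164 CPM in RemoLV and 48.3 to 223 CPM in Hyper. In Control it was at 37.6, 77.3 and 43.4 CPM. The groups overlapped throughout except for MYO, which was above all Control libraries (78.3 against 77.3 CPM), and within Hyper the libraries differed 4.62-fold. AGT was not called in any comparison by either naming. Its log2 fold changes against Control were 0.56 ± 0.46 for DOX, 1.10 ± 0.47 for MYO (adjusted p = 0.0678), 0.84 ± 0.51 for RemoLV and 1.31 ± 0.51 for Hyper (unadjusted p = 0.0197, adjusted p = 0.207). For MYO the call was gained with only the 2 groups in the fit (1.08, adjusted p = 0.00869), without the 3 libraries labelled RemoLV (1.09, adjusted p = 0.0479) and on leaving out RemoLV replicate 1 or 2, Hyper replicate 2 or 3 or Control replicate 2. Named as in the table, AGT was at -0.37 for DOX, 0.31 for MYO, -0.84 for RemoLV and 0.47 for Hyper.

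ACE, the converting enzyme, was at 28.4 to 35.2 CPM in Control and reached 70.5 CPM in MYO, 63.5 CPM in RemoLV, 59.6 CPM in Hyper and 53.8 CPM in DOX. The 3 libraries labelled RemoLV (44.1 to 63.5 CPM) were above all Control libraries, while each of the other groups overlapped with Control. ACE was not called by file labels, with log2 fold changes of 0.28 ± 0.30 for DOX, 0.62 ± 0.30 for MYO, 0.77 ± 0.33 for RemoLV (adjusted p = 0.0659) and 0.61 ± 0.33 for Hyper. The call was gained for MYO without MYO replicate 1 (0.77, adjusted p = 0.0447), and for RemoLV with only the 2 groups in the fit (0.78, adjusted p = 0.00902) and on leaving out MYO replicate 1 or Hyper replicate 1. Named as in the table, it was lower than Control in DOX (-0.70, adjusted p = 0.0386) and in RemoLV (-0.77, adjusted p = 0.0303).

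In counts, 3 of the 7 tested members were called in DOX against Control (1 higher, 2 lower), beside 42.1% of all genes tested (21% higher and 21.1% lower), and 3 of 7 in MYO (all lower), beside 42.4% (20.7% higher and 21.7% lower). In the libraries labelled RemoLV 2 of 7 were called (both lower), beside 47.2% of all genes (23.1% higher and 24% lower). In Hyper 0 of 7 were called, beside 0% of all genes, although 2418 genes, AGT among them, had an unadjusted p under 0.05 with edgeR, and DESeq2 also called 0 of 7. The shares of members called were near or below those of all genes. None of the members reached the further threshold of an absolute log2 fold change of 2 that the study used, which 2.75%, 2.47%, 6.35% and 0% of all genes passed in the same order, 4.38%, 4.18%, 6.34% and 4.99% by table names, and 1.75% (1.76% by table names) in the drugs against Hyper and 4.93% in RemoLV against Hyper. The median log2 fold change of the 7 members was -0.23 for DOX, -0.24 for MYO, -0.48 for RemoLV and 0.02 for Hyper, beside medians of 0.03, 0.02, 0.02 and 0.01 over all genes. By table names, 5 of 7 members were called in DOX (2 higher and 3 lower, beside 29.6% of all genes, 15% higher and 14.6% lower) and 2 in MYO (both higher, beside 29.2%, 14.8% higher and 14.4% lower). By the same names 3 were called in RemoLV (2 higher and 1 lower, beside 47.2%, 24% higher and 23.2% lower) and 3 in Hyper (all higher, beside 35.8%, 18.7% higher and 17.2% lower). All 4 comparisons share the 3 Control libraries.

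Free and liposomal doxorubicin, given at the same dose and sampled at the same time, were compared directly. No member was called between DOX and MYO (0 of 7, beside 0% of 13552 genes, with 960 genes under an unadjusted p of 0.05 with edgeR, and 0 of 7 with DESeq2). The intervals of ±2 SE around the log2 fold change were -0.42 to 0.22 for AGTR1, -0.49 to 0.19 for EDNRA and -0.37 to 0.39 for EDNRB, but -1.32 to 0.24 for AGT and 0.04 to 1.08 for EDN1 (unadjusted p = 0.0454, adjusted p = 0.70). Differences of these sizes between the drugs are not excluded with 5 libraries a group. With the drug groups named as in the table, again 0 of 7 were called, beside 0% of all genes, with 1095 genes under an unadjusted p of 0.05 and ACE (-0.70) and AGTR1 (-0.38) among them.

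DOX and MYO together against Hyper had 2 of 7 members called, both lower (AGTR1 and EDNRA), beside 32.6% of all genes (15.8% higher and 16.9% lower), and the same 2 by table names, beside 32.7%. The other 5 had log2 fold changes from -0.48 ± 0.39 for AGT to 0.19 ± 0.16 for NR3C2. RemoLV against Hyper had 3 of 7 called, all lower (AGTR1, NR3C2 and EDNRB), beside 35.6% of all genes (17% higher and 18.6% lower). There AGTR1 differed by -0.61 ± 0.20 on the log2 scale (adjusted p = 0.0246) and lost its call without RemoLV replicate 1 or 3 or Hyper replicate 1. The table names, which compare the libraries labelled Control with Hyper, gave 0 of 7 called, beside 0% of all genes, with 2465 genes under an unadjusted p of 0.05.

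**Figure D4:**
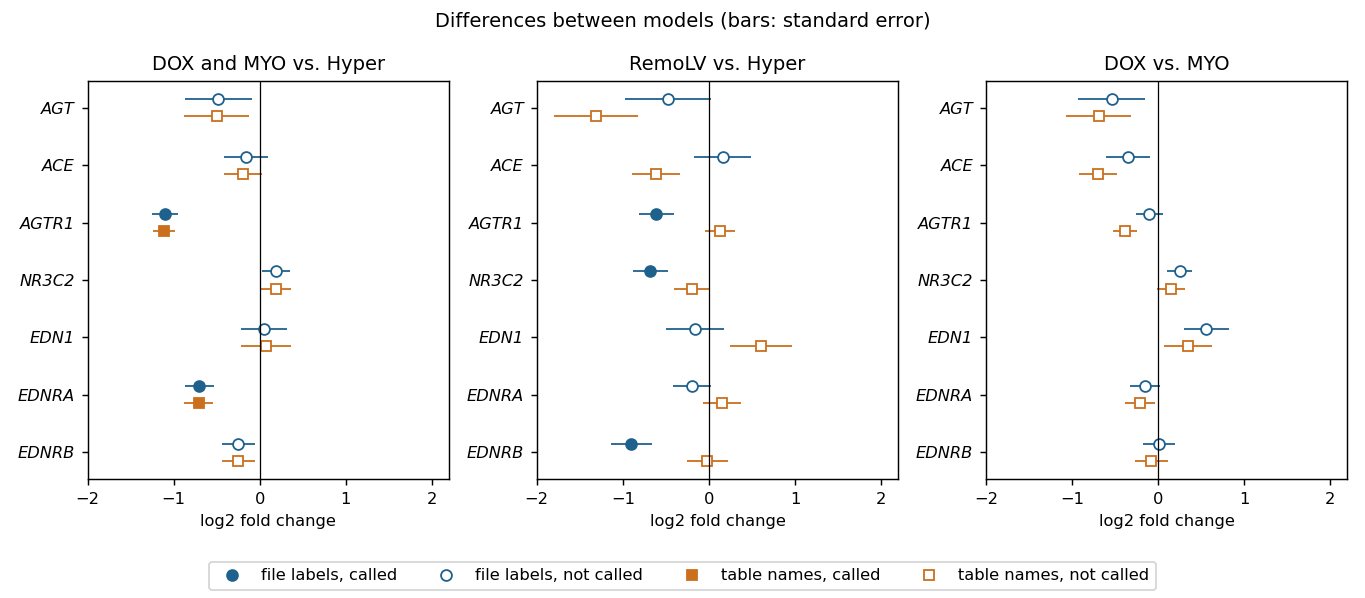
Log2 fold change with standard error for DOX and MYO together against Hyper, RemoLV against Hyper, and DOX against MYO, by file labels (circles) and table names (squares); filled symbols have an adjusted p of at most 0.05. AGTR1 (-1.10 and -1.11) and EDNRA (-0.70 and -0.71) are lower in the drug libraries than in Hyper under both namings.

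The values above are scaled with TMM factors, which were 0.70 to 0.96 in Control, 0.83 to 0.95 in Hyper and 0.97 to 1.18 in the other groups. Scaled by library totals alone, the median of all genes moved to 0.45 (DOX), 0.44 (MYO), 0.52 (RemoLV) and 0.17 (Hyper) against Control, and to 0.29 in the drugs against Hyper. Against these shifts AGTR1 was at -0.83 in DOX (adjusted p = 0.00195), -0.73 in MYO (adjusted p = 0.00501) and -0.83 in the drugs against Hyper (adjusted p = 0.00111), still called in all 3. EDNRA (-0.57, -0.41 and -0.43 in the same order) and EDN1 in MYO (-0.37) were not called on this scale, nor were AGTR1 (-0.22) and EDNRB (-0.32) in RemoLV, while NR3C2 in DOX was (0.90, adjusted p = 0.00398). Higher calls were gained on this scale by ACE (1.04, adjusted p = 0.0133), AGT (1.46, adjusted p = 0.025) and NR3C2 (0.64, adjusted p = 0.0276) in MYO and by ACE in RemoLV (1.25, adjusted p = 0.00648), so that MYO went from 0 higher and 3 lower members to 3 higher and 1 lower, beside 46.1% of all genes called on this scale.

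The marker genes of cell types moved with the groups, and their part in the differences was not tested. In bulk tissue, fewer cells of a type cannot be told apart from less RNA per cell. The summed CPM of 10 mural cell markers, the pericytes and smooth muscle cells in which AGTR1 and EDNRA are known to be expressed, was similar in range in all groups, with Control above RemoLV without overlap (904 to 1526 in DOX, 1028 to 1280 in MYO, 957 to 1235 in RemoLV, 1082 to 1258 in Hyper and 1258 to 1295 in Control). Single mural markers moved in both directions, with 3 of 10 higher and 3 lower than Control under each drug, 3 and 2 in RemoLV, and 3 and 3 in the drugs against Hyper. Per 1000 CPM of these markers, AGTR1 was at 8.71 to 23.2 in DOX, 11.6 to 17.2 in MYO, 17.3 to 23.2 in RemoLV, 24.8 to 36.6 in Hyper and 23.8 to 35.4 in Control, so that all drug libraries were below Hyper and Control on this scale too. DOX overlapped with RemoLV there. EDNRA on this scale was at 83.8 to 150 in DOX and 101 to 142 in MYO, against 123 to 253 in Hyper and 138 to 256 in Control, which overlapped. Fibroblast markers (10 genes) summed to 4784 to 7347 CPM in the drug libraries, 1677 to 4000 CPM in Hyper and Control and 11247 to 12929 CPM in those labelled RemoLV. Per 1000 CPM of these, AGTR1 was at 1.71 to 4.11 in the drug and RemoLV libraries and at 8.57 to 19.9 in Hyper and Control. EDNRA on the fibroblast scale was at 16.6 to 31.7 in the drug libraries, 13.8 to 16.7 in RemoLV and 42.4 to 129 in Hyper and Control, with no overlap between the drugs and the last 2 groups. The 6 of 10 cardiomyocyte markers with a row summed to 27135 to 33373 CPM in the drug libraries, 22271 to 23635 CPM in those labelled RemoLV, 33924 to 39439 CPM in Hyper and 30297 to 41622 CPM in Control, so that both the drug and the RemoLV libraries were below Hyper without overlap. Of these 6 genes, 1 was higher and 4 lower than Control in DOX, 2 higher and 4 lower in MYO, and 1 higher and 5 lower in RemoLV. Against Hyper 2 were lower in the drug libraries, and 4 were lower and 1 higher in those labelled RemoLV. Per 1000 CPM of these, NR3C2 was at 1.18 to 1.70 in DOX, 0.918 to 1.38 in MYO, 0.678 to 1.04 in RemoLV, 0.792 to 1.00 in Hyper and 0.515 to 1.28 in Control. The 9 of 10 endothelial markers with a row, of which EGFL7 was listed at 0 throughout, summed to 771 to 846 CPM in the libraries labelled RemoLV and 933 to 1300 CPM elsewhere. Per 1000 CPM of these, EDNRB was at 24.9 to 37.8 in RemoLV and 32.2 to 50.5 in Control, which overlapped, as they did by CPM, where 1 Control library (31.5 CPM) fell within RemoLV. In Hyper it was at 40.6 to 51.9 per 1000 CPM of these markers, above RemoLV without overlap. The 8 of 10 atrial markers with a row summed to 1204 to 2504 CPM in DOX, 860 to 1340 CPM in MYO, 333 to 1336 CPM in Hyper and 188 to 254 CPM in Control, and 2 of 7 tested were higher under each drug than in Control and 2 in the drugs than in Hyper. In the libraries labelled RemoLV all 7 atrial markers tested were higher and all 5 ventricular ones lower, both than Control and than Hyper. The 6 leukocyte markers summed to overlapping ranges (116 to 262 CPM over all libraries), with 2 higher and 1 lower in the drugs than in Hyper and 1 and 1 in RemoLV than in Hyper. Against Control 3 were higher and 1 lower in DOX, 1 and 1 in MYO, and 2 and 2 in RemoLV. The 3 mast cell markers tested had 1 higher in each of the 2 comparisons with Hyper. Compared with Control, none was called in DOX, 1 was higher and 1 lower in MYO, and 1 was lower in RemoLV. Of 6 mesothelial markers 1 had a row, at 0.0891 to 1.83 CPM in RemoLV and 9.69 to 20.7 CPM in Hyper. It was lower in RemoLV than in Hyper and Control, and higher in DOX and MYO than in Control.

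**Figure D5:**
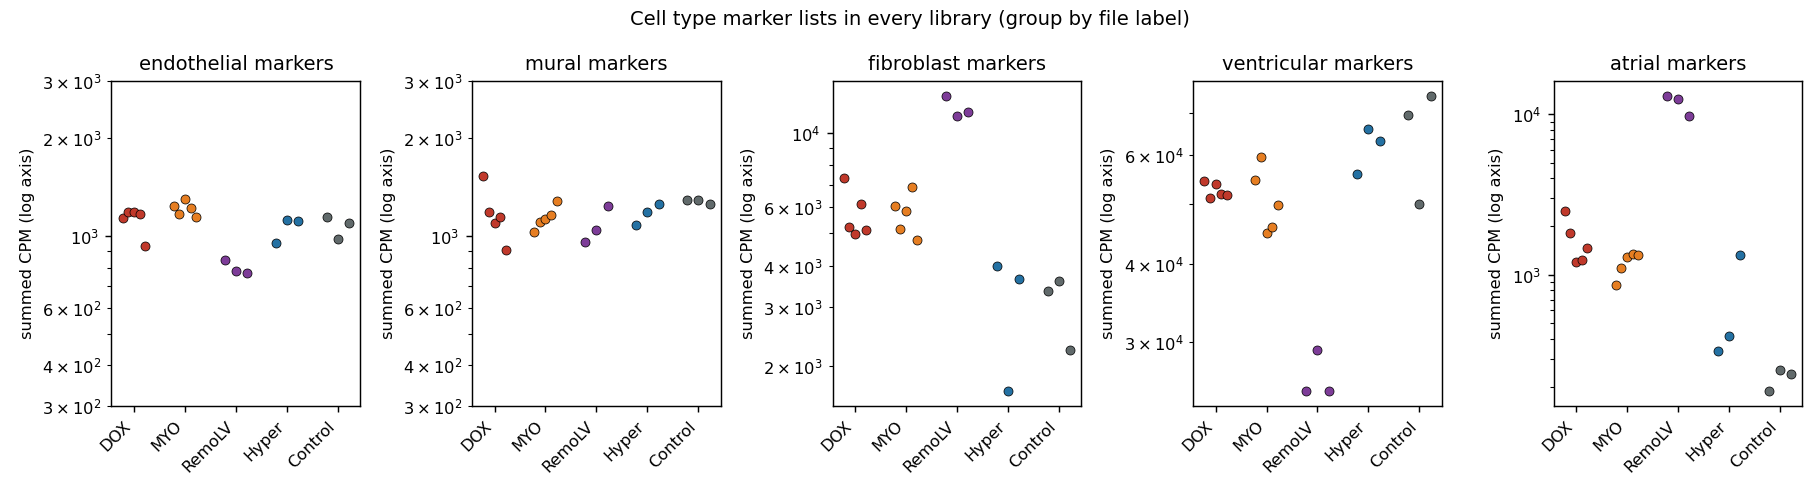
Summed CPM (log axis) of the marker lists for endothelial, mural and fibroblast cells and for ventricular and atrial cardiomyocytes in each library by file label. The libraries labelled RemoLV stand apart in the fibroblast (11247 to 12929), ventricular (25022 to 29133) and atrial lists (9731 to 13036), while the mural list is between 904 and 1526 in all libraries.

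The rest of the renin-angiotensin system was described from a list of 10 further genes, of which 6 could be tested. AGTR2, the type 2 receptor, had at most 6 counts in any library, and it was not tested, nor were MAS1, CMA1 and CTSG. Against Control, 0 were higher and 2 lower for DOX, 0 and 3 for MYO, 1 and 3 for RemoLV and 0 and 0 for Hyper, beside 42.1%, 42.4%, 47.2% and 0% of all genes called in these comparisons, as for the lists that follow. ATP6AP2, an accessory protein of the vacuolar proton pump, was lower in DOX (-0.43, adjusted p = 0.00851), MYO (-0.31, adjusted p = 0.0478) and RemoLV (-0.83, adjusted p = 0.000111). AGTRAP, which binds the type 1 receptor and promotes its internalisation, was higher in the libraries labelled RemoLV (1.59, adjusted p = 0.00012), where CTSD, a lysosomal aspartic protease, was lower (-1.03, adjusted p = 9.63e-05). By table names these signs turned, with ATP6AP2 higher than Control in DOX (0.45), MYO (0.47) and RemoLV (0.83), AGTRAP lower (-1.59) and CTSD higher (1.03) in RemoLV, all called.

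Of 8 further mineralocorticoid and glucocorticoid genes, 5 were tested, and 0 higher and 2 lower were called for DOX, 0 and 1 for MYO, 1 and 1 for RemoLV and 0 and 0 for Hyper. NR3C1, the glucocorticoid receptor, was lower in DOX (-0.35, adjusted p = 0.0213) and MYO (-0.49, adjusted p = 0.00242). SGK1, a kinase induced by both receptors, was lower in the libraries labelled RemoLV (-1.50, adjusted p = 0.00458), and HSD11B1, which regenerates active glucocorticoid, was lower in DOX (-0.63, adjusted p = 0.00602). HSD11B2, the enzyme that protects the mineralocorticoid receptor from glucocorticoid, had 2 to 19 counts per library and was the 1 called higher in RemoLV (1.98, adjusted p = 0.0106), a gene named after its values were seen. Of 5 endothelin genes, only ECE1, the converting enzyme of endothelin, was tested, and it was higher in MYO (0.44, adjusted p = 0.0258). Of 4 genes of apelin processing, FURIN and PCSK7 were tested, and both convertases were higher in RemoLV (1.26, adjusted p = 0.000629, and 0.54, adjusted p = 0.0208), PCSK7 also in DOX (0.54, adjusted p = 0.0149) and MYO (0.45, adjusted p = 0.0358). By table names NR3C1 (-0.42 and -0.38) and HSD11B1 in DOX (-1.10) stayed lower and ECE1 in MYO stayed higher (0.81), all called, whereas SGK1 was higher in RemoLV (1.50), FURIN (-1.26) and PCSK7 (-0.54) were lower there, and PCSK7 in DOX (0.06) and MYO (-0.16) was not called.

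AGTR1 and EDNRA signal through Gq proteins and phospholipase C, and all 15 genes of a list for this step were tested. In DOX 4 were higher and 3 lower than Control, in MYO 4 and 4, in RemoLV 3 and 4, and in Hyper 0 and 0, shares near those of all genes. GNAQ, the alpha subunit of Gq, was lower in DOX (-0.76, adjusted p = 0.000305), MYO (-1.07, adjusted p = 1.51e-05) and RemoLV (-0.66, adjusted p = 0.00199), and lower in the drugs than in Hyper (-0.75, adjusted p = 0.00015). Its levels were 13 to 20.8 CPM in the drug libraries and 25.1 to 35.7 CPM in Hyper and Control, with no overlap. PLCB1, a phospholipase C, was higher in the libraries labelled RemoLV (2.48, adjusted p = 1.47e-08) and lower in DOX (-0.55, adjusted p = 0.00933) and MYO (-0.44, adjusted p = 0.029), while PLCB3 was higher in DOX (0.73, adjusted p = 0.000299) and MYO (0.48, adjusted p = 0.00595). By table names GNAQ was not called in DOX (-0.16, adjusted p = 0.453) or MYO (-0.35, adjusted p = 0.0966) and was higher in RemoLV (0.66) and Hyper (0.49), PLCB1 was lower in DOX (-3.03), MYO (-2.91) and RemoLV (-2.48), and PLCB3 stayed higher in DOX (0.76) and MYO (0.54). Beside 29.6%, 29.2%, 47.2% and 35.8% of all genes called by table names in DOX, MYO, RemoLV and Hyper, the calls of the 5 lists became, for DOX, 3 higher and 1 lower, 1 and 2, 1 and 0, 0 and 1, and 3 and 1, and for MYO 2 and 2, 0 and 2, 1 and 0, 0 and 1, and 3 and 1. In RemoLV they became 3 higher and 1 lower, 1 and 1, 0 and 0, 0 and 2, and 4 and 3, and in Hyper 3 and 1, 1 and 1, 1 and 0, 0 and 1, and 4 and 2, in the order of the lists above.

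Over the 19 libraries the log2 CPM of AGTR1 and EDNRA had a Pearson r of 0.78, the highest among the 21 pairs of members, and EDNRA and EDNRB had -0.03. The points share the group structure described above, so these values are descriptions. Among 9848 other genes, those most like AGTR1 were ETFRF1 (r = 0.96), ELOC (0.95) and MORN2 (0.94), and those most like EDNRA were NAP1L1 (0.91), ZNF277 (0.90) and FAM149B1 (0.89). Without the 3 libraries labelled RemoLV these 6 values were between 0.90 and 0.96. EDN1 was most like RIPK2 (0.86), SERTAD1 (0.80) and TLR2 (0.78), and EDNRB most like NMRAL1 (0.88), HDLBP (0.87) and NDUFB10 (0.86), which fell to 0.75 to 0.78 without those libraries. NR3C2 was most like PPP1R3B (0.82), MACROH2A1 and CCDC93 (0.80 each), which fell to 0.69, 0.63 and 0.75 without the same libraries. ACE was most like PAFAH1B3 (0.84), CRYL1 (0.80) and KLHL13 (0.79), and AGT, the most variable member, reached no more than 0.72 (TBC1D20).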

How the data were processed

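RNA of 19 samples labelled as pig myocardium, described as left ventricular in the study's methods, was analysed. The authors used STAR for alignment (Sscrofa11.1) and HTSeq 0.11.1 for stranded counting over Ensembl genes, and deposited raw counts without normalization. The log2-like expression columns of the table deposited by the authors were used for gene symbols and for matching sample names only. Its other columns hold the authors' DESeq2 fold changes and adjusted p-values and were not used. Members and lists were chosen with earlier results of these data known. Named from the lists were, at most, the 3 genes with the lowest adjusted p against Control, and for each member the 3 genes most like it. HSD11B2 was named outside this rule.

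In R 4.3.3, counts were scaled by TMM, filtered with filterByExpr and tested with the edgeR 4.0.16 quasi-likelihood test in 1 model of 5 groups without a block, with Benjamini-Hochberg adjustment over all genes tested and a threshold of 0.05. CPM use TMM library sizes. No 2 libraries agreed within sampling noise (lowest mean chi-square per gene 11.3 over 171 pairs). The procedure was also run on simulated counts with the same spread for every gene, and no result given here rests on that run. Alternatives were DESeq2 1.42.0, RLE, upper-quartile and no scaling factors, other filters, fits without other groups or without RemoLV, a replicate block, table names and each library left out. Scaling by totals alone was added after seeing the data. Python 3.11.15 made tables and figures. P-values of the ratio were adjusted over 8 tests, of which 4 are not reported here. Group differences rest on 3 to 5 pigs a group.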

Additional observations from a re-analysis of the deposited data

Results flagged for a closer look

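Differences between models that passed a test of the difference itself stood out for 5 pairs of gene and comparison, by file labels. AGTR1 (-1.10 on the log2 scale) and EDNRA (-0.70) differed between DOX and MYO together and Hyper. AGTR1 (-0.61), NR3C2 (-0.68) and EDNRB (-0.90) differed between the libraries labelled RemoLV and Hyper. Marker lists moved with both comparisons, as given above, and their part was not tested. In the 14 sets of 5 libraries tested for a library far from the others, which are the 7 members in DOX and MYO, 0 of the members' levels stood apart. RemoLV, Hyper and Control, with 3 libraries each, were not tested in this way.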

How the results depend on the processing

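The naming of the groups changed several results. With the table names the number of members called went from 3 to 5 in DOX against Control, from 0 to 3 in Hyper against Control and from 3 to 0 in RemoLV against Hyper. Values that changed sign and were called under at least 1 naming were ACE in DOX (-0.70) and RemoLV (-0.77), AGTR1 in RemoLV (0.75), in Hyper (0.61) and in RemoLV against Hyper (0.13), EDN1 in MYO (0.05), and EDNRB in DOX (0.60), MYO (0.68) and RemoLV (0.87). Further values changed sign without a call under either naming, among them AGT in DOX (-0.37) and RemoLV (-0.84), EDN1 in DOX (0.40), RemoLV (0.76) and Hyper (0.16), NR3C2 (0.48) and EDNRA (0.35) in RemoLV, and ACE in Hyper (-0.16). The difference of RemoLV from Control in the log2 ratio of EDNRA to EDNRB changed from 0.54 to -0.54. Which naming is right was not tested. With library totals alone, an alternative chosen after seeing the data, members called went from 2 to 1 in RemoLV against Control (ACE, higher, replaced AGTR1 and EDNRB), from 2 to 1 in the drugs against Hyper and from 3 to 0 in RemoLV against Hyper, beside 53.2%, 34.3% and 37.5% of all genes called on that scale. ACE in RemoLV was called there (1.25, adjusted p = 0.00648) and with upper-quartile factors (0.89, adjusted p = 0.0374). On leaving out each library, members called were between 2 and 5 in MYO against Control (5 without Control replicate 2), 2 and 4 in RemoLV against Control (4 without MYO replicate 1) and 1 and 2 in the drugs against Hyper (1 without Hyper replicate 1). The difference of Hyper from Control in the log2 ratio of EDNRA to EDNRB, -0.19 with all libraries, was then between -0.54 and 0.35.

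Replicate numbers are shared between groups without a stated pairing. Deviations from the group means correlated between -0.25 and 0.24 for 32 pairs of libraries with the same number (median 0.01), and 4 of 19 libraries correlated best with their own number. With the number as a replicate block, NR3C2 in DOX (0.49, adjusted p = 0.0678) and EDN1 in MYO (-0.82, adjusted p = 0.0762) were not called. EDN1 rests on 31 to 124 counts per library.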
